A study of Arabidopsis thaliana with 15 samples.

Results

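The core genes described here are the 222 genes of the Arabidopsis leaf whose transcript level lay at least 4-fold lower in darkness than in light in every darkened group of the series. They were chosen by their measured values: the mean log2 intensity of the 3 arrays of each of the 4 darkened groups had to lie at most -2 from the mean of the 3 light arrays, among probe sets paired with exactly 1 gene. The rule took 222 of 16179 such probe sets (1.37%). Since the rule used the contrast of darkness with light, differences from light are given below as a description of the members and were not tested. Tests were made only on contrasts that the rule did not use, which compare the darkened groups with each other. The rule still set an upper limit on each darkened mean that these contrasts compare. Shares of members called are therefore a description beside all genes.

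Each of 15 Affymetrix arrays measured the leaf transcripts of Arabidopsis thaliana Col-0, the common laboratory accession. Days had 8 h of light (180 µmol m−2 s−1), nights lasted 16 h, and the temperature was 22 °C. Leaves taken in light at day 0 formed 1 group. In the DP groups the whole plant was put in a dark box, and its leaf was taken after 3 or 6 days (DP, darkened plant). In the IDL groups a single leaf was wrapped under a foil-coated cover while the rest of the rosette stayed in light, and was taken after 3 or 6 days (IDL, individually darkened leaf). No group carried a mutation or transgene. Every group had 3 biological replicates, each a pool of 2 leaves from independent plants harvested at noon. Light was sampled at day 0 only, so a difference from light joins darkness with 3 or 6 more days of age. Whole leaves were extracted, so fewer cells of a type and less RNA per cell cannot be told apart.

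In a green leaf, chloroplasts capture light in thylakoid membranes and use the energy to fix carbon in the Calvin cycle, and photorespiration recycles the by-product that Rubisco makes when it takes oxygen in place of carbon dioxide. Nuclear genes for these steps are transcribed in light and are known to be repressed in prolonged darkness, when leaves run short of sugar. Darkening a single leaf is known to bring on yellowing sooner than darkening the whole plant. Growth of the leaf also draws on enzymes that loosen and rebuild the cell wall.

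Light levels of the core genes are a description only, since the rule used them: a gene had to be bright enough in light to lie at least 4-fold lower in darkness. The lowest light mean was 5.64, the median 7.63 and the highest 11.91 (log2 intensity), and 167 of the 222 lay in the top decile of all genes in light, which began at 6.88. In darkness the median of the members was 4.62 in DP at day 3, 4.47 in DP at day 6, 4.43 in IDL at day 3 and 4.18 in IDL at day 6. The median difference from light was -2.65, -2.89, -2.86 and -3.09 in the same order, beside 0.04, 0.05, 0.06 and 0.03 over all 16175 genes tested. All members meet the thresholds by construction, and the shares of all genes that lay as low against light were 1.74% in DP at day 3, 2.36% in DP at day 6, 2.26% in IDL at day 3 and 2.68% in IDL at day 6. Background was not measured here, so a difference that ends near the bottom of the array is a lower bound on its size. IDL at day 6 had the most members (21) that did not exceed the group's lower quartile over all genes. In 194 members no darkened group was that low, and in 1 all 4 were. Members at or below the group's median over all genes numbered 54 in DP at day 3 and 57 at day 6. In IDL they numbered 61 at day 3 and 87 at day 6, and 40 members were that low in all 4 groups.

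**Figure D1:**
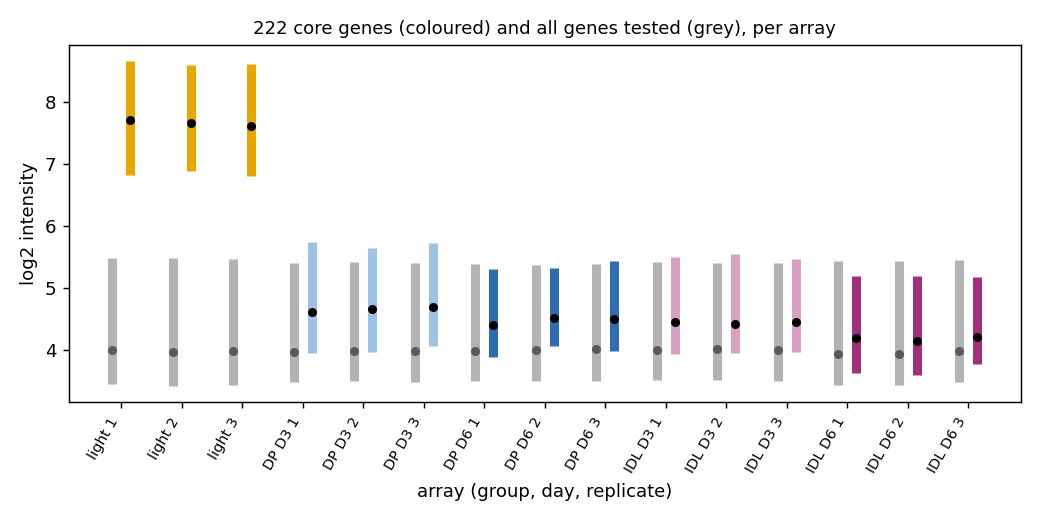
Log2 intensity on each of the 15 arrays (x axis: group, day and replicate). Coloured bars span the lower to the upper quartile of the 222 core genes and grey bars that of all genes tested, with points at the medians. The median of the core genes in light was 7.63. In the darkened groups it lay between 4.18 and 4.62, above the median of all genes (3.94 to 3.98).

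The members differed in how far below light they lay. The mean of the 4 differences had a median of -2.89, 55 members lay at -3 or below in all 4 darkened groups, and 18 at -4 or below. The 12 lowest were LrgB (-5.16), NdhL (-5.13), AT1G70820 (-5.11), SBPASE (-4.86), AT1G22430 (-4.84), TBL26 (-4.80), AT5G24155 (-4.79), AT1G51110 (-4.78), AT4G18440 (-4.76), AT1G76960 (-4.76), GSTU20 (-4.73) and GH9C2 (-4.61). On the linear scale the mean difference of LrgB was 35.8-fold and that of GH9C2 24.4-fold. At the threshold, AT5G39790, AT2G37660 and AT5G55220 were the last inside, with a smallest difference of -2.001, -2.0021 and -2.0253. The first genes outside were AT3G12930 (-1.9994), AT1G74070 (-1.9982) and AT5G66520 (-1.9969). A gap of at least 0.81 on the log2 scale separated the lowest light array from the highest darkened array in every member.

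Of the 222 members, 44 carry a gene symbol in the RefSeq gene table and 178 do not. Members without a symbol are named by their locus, and a synonym is given for only some of them. The members lay on all chromosomes, with 64 of 4183 genes tested on chromosome 1 (1.53%), 35 of 2456 on chromosome 2 (1.43%), 41 of 3297 on chromosome 3 (1.24%), 33 of 2378 on chromosome 4 (1.39%) and 49 of 3749 on chromosome 5 (1.31%). There were 4 pairs of neighbouring members in the gene table, namely AT1G76955 with AT1G76960, COR15B with COR15A, AT2G43550 with AT2G43560, and AT5G19240 with AT5G19250. Whether probes of such neighbours share transcripts was not tested.

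Differences from light at day 3 and day 6 were both used by the rule, which required every member to be at least 4-fold lower by day 3 and so left out genes that fell later. Their ratio is given as a description. In DP the day 3 difference was a median of 95.68% of the day 6 difference, and 162 members had reached at least 90% of it. In IDL the median was 92.52%, and 133 members had reached at least 90%. Across the 4 darkened means the range within a gene had a median of 0.51 and ran from 0.04 to 3.49. It was under 0.5 in 109 members and over 2 in 7. The lowest of the 4 darkened means was that of IDL at day 6 in 137 members, DP at day 6 in 37, IDL at day 3 in 27 and DP at day 3 in 21. The same count was not made over all genes. Their median was also lowest in IDL at day 6 (3.94, beside 3.97 to 3.98 in the other darkened groups). The count is therefore not read as a trait of the members.

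The darkened groups were then compared with each other by limma, with each of the 5 contrasts adjusted over all genes tested and a call at an adjusted p under 0.05. In IDL against DP at day 3, 39 members were lower (17.6%, beside 7.99% of all genes) and 13 higher (5.86%, beside 8.74% of all genes). Leaving out replicate 1 of DP at day 3 took the higher members from 13 to 8. In IDL against DP at day 6, 78 members were lower (35.1%, beside 13.9% of all genes) and 17 higher (7.66%, beside 15.1%). Centring the arrays on 5 reference genes raised the lower members at day 6 from 78 to 127. Centring on the median of all genes lowered them to 70. Of the reference genes, 2 were themselves called higher in IDL than in DP at day 6. They were AT2G28390, by 0.36 ± 0.12 (adjusted p = 0.0293), and AT4G26410, by 0.50 ± 0.14 (adjusted p = 0.0108). The count of 127 thus rests in part on references that differed in the same contrast. Reference gene centring moved the median of all genes in DP at day 6 against light from 0.05 to 0.23. The median member lay at -0.14 in IDL against DP at day 3 and at -0.23 at day 6, beside 0.02 and -0.03 over all genes. Members lower in IDL were thus a larger share than among all genes on both days, and members higher in IDL a smaller one. All 222 members lay above the upper quartile of all genes in light, whereas all genes include dim ones. These shares therefore do not compare like genes.

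Between day 3 and day 6 of whole-plant darkness 27 members fell further (12.2%, beside 2.53% of all genes) and 1 rose (0.45%, beside 2.03%). In the individually darkened leaf 47 members fell further (21.2%, beside 3.83%) and 4 rose (1.8%, beside 4.82%). The count of 47 dropped to 29 without replicate 1 of IDL at day 6 and to 30 without its replicate 2. It was 39 with centring on the median of all genes and 36 with reference gene centring. The single member that rose in DP was AT1G52590, by 0.54 ± 0.14 (adjusted p = 0.0331), and its call was lost without replicate 1 or 3 of DP at day 3 (adjusted p = 0.0996 and 0.184) and without replicate 1, 2 or 3 of DP at day 6 (0.0743, 0.053 and 0.119). With reference gene centring 5 members rose and 20 fell in DP, which moved the share of rises among called members from 3.57% to 20.0%. The median member changed by -0.12 in DP and by -0.25 in IDL, beside 0.00 and -0.04 over all genes.

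**Figure D2:**
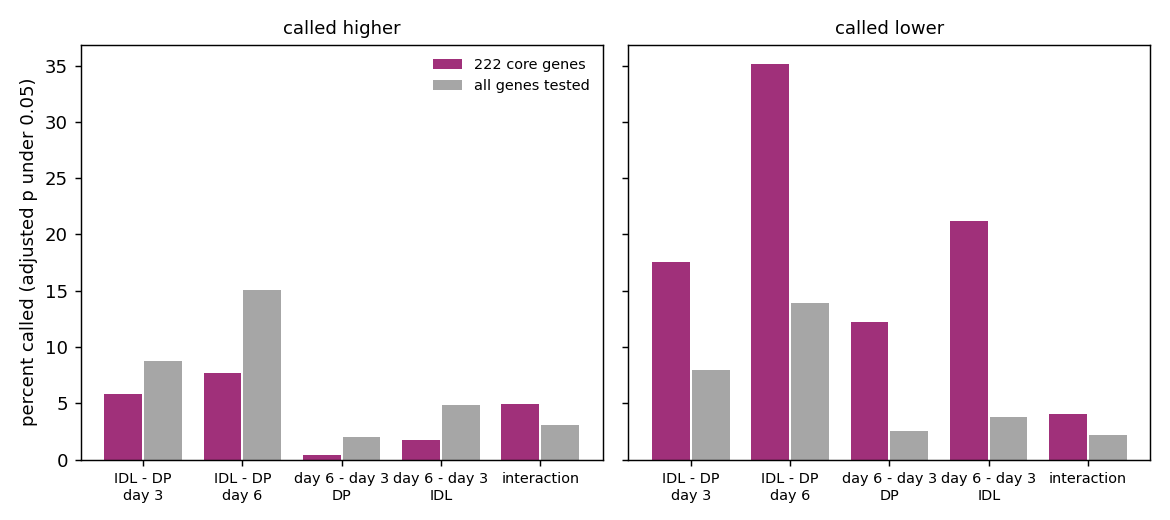
Percent of the 222 core genes (purple) and of all genes tested (grey) called higher (left) and lower (right) at an adjusted p under 0.05 in each of the 5 contrasts named on the x axis. Calls lower in IDL at day 6 took 35.1% of the core genes and 13.9% of all genes, and calls higher took 7.66% and 15.1%.

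Photorespiration was represented by 3 of the 6 measured genes of its list. LrgB (AT1G32080), the transporter that carries glycolate and glycerate across the chloroplast envelope, had the lowest mean difference of all members. LrgB read 9.28, 9.32 and 9.26 in the light arrays, 4.13, 4.08 and 4.19 in DP at day 3 and 3.91, 4.23 and 4.28 in DP at day 6. In IDL the arrays read 4.27, 4.63 and 4.46 at day 3 and 3.71, 3.62 and 3.96 at day 6. Every darkened array of LrgB lay more than 4 below every light array, and the darkened groups lay close together. In IDL it still fell, with a change from day 3 to day 6 of -0.69 ± 0.13 (adjusted p = 0.000877). AT1G11860 and AT1G32470, both loci of the photorespiration list, were more graded. AT1G11860 gave 7.39, 7.18 and 7.07 in the light arrays, 4.83, 5.12 and 5.0 in DP at day 3 and 4.41, 5.02 and 4.71 in DP at day 6. The values in IDL were 4.0, 3.99 and 4.12 at day 3 and 3.48, 3.47 and 3.70 at day 6. Its IDL arrays lay below all DP arrays on both days. The difference of IDL from DP was -0.94 ± 0.14 (adjusted p = 3.08e-05) at day 3 and -1.16 ± 0.14 (adjusted p = 9.71e-07) at day 6. For AT1G32470 it was -1.05 ± 0.14 (adjusted p = 1.09e-05) and -0.64 ± 0.14 (adjusted p = 0.00139), and DP fell by 0.93 from day 3 to day 6 (adjusted p = 0.000433). Of the other measured genes of this list, HPR, the peroxisomal hydroxypyruvate reductase, lay -0.86 and -1.14 from light in DP and -2.44 and -2.99 in IDL at days 3 and 6. AT1G80380 differed between IDL and DP by -0.78 ± 0.15 (adjusted p = 0.000786) at day 3 and -1.41 ± 0.15 (adjusted p = 2.76e-07) at day 6. AT4G22840 went the other way at day 6, with IDL above DP by 0.94 ± 0.16 (adjusted p = 9.38e-05), and was not called at day 3 (adjusted p = 0.569).

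The plastid NDH complex, which passes electrons from ferredoxin back to the plastoquinone pool around photosystem I, had 3 members among the 4 measured genes of its list, and CRR42, a factor named for chlororespiratory reduction, is a member outside the list. NdhL read 9.51, 9.73 and 9.75 in the light arrays, 5.40, 5.32 and 5.24 in DP at day 3 and 4.97, 5.18 and 5.16 in DP at day 6. At day 3 the IDL arrays gave 4.34, 4.07 and 4.13, and at day 6 3.68, 3.46 and 3.44. NdhL (AT1G70760) is a membrane subunit of the complex. Its arrays were ordered light, DP, IDL with no overlap between these 3. IDL differed from DP by -1.14 ± 0.12 (adjusted p = 2.3e-07) at day 3 and -1.58 ± 0.12 (adjusted p = 7.56e-10) at day 6, and fell by 0.66 between the days (adjusted p = 0.00069). NdhN gave 7.56, 8.06 and 7.69 in the light arrays, 4.24, 4.02 and 4.27 in DP at day 3 and 3.92, 4.47 and 4.14 in DP at day 6. IDL gave 4.09, 4.25 and 3.98 at day 3 and 3.81, 3.36 and 3.86 at day 6. In NdhN, another subunit, the DP arrays of both days overlapped with IDL at day 3. Its difference of IDL from DP at day 6 was -0.50 ± 0.16 (adjusted p = 0.0212), a call lost without replicate 2 of DP or of IDL at day 6 (adjusted p = 0.141 and 0.156). NdhU, also a subunit, had a light mean of 7.38 ± 0.21 (SD, n = 3) and darkened means from 3.62 to 3.98, and was called in none of the 5 contrasts. CRR42 lay lower in IDL than in DP at day 6, with a difference of -0.76 ± 0.12 (adjusted p = 3.03e-05). PIFI, the measured gene of the list that is no member, went the other way: its IDL mean lay above DP by 0.61 ± 0.12 (adjusted p = 0.000666) at day 3 and 1.43 ± 0.12 (adjusted p = 4.75e-09) at day 6, and its differences from light were -1.30 and -1.05 in IDL.

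Genes of the thylakoid membrane gave 6 members. PSBW (AT2G30570), a small nuclear-encoded subunit of photosystem II, was the second brightest member in light. PSBW gave 12.18, 11.54 and 11.50 in the light arrays, 9.16, 9.39 and 9.37 in DP at day 3 and 7.65, 7.83 and 7.76 in DP at day 6. Individually darkened leaves gave 9.20, 8.84 and 8.99 at day 3 and 8.56, 8.51 and 8.69 at day 6. DP at day 6 was the lowest group, below every IDL array. It fell in DP by 1.56 from day 3 to day 6 (adjusted p = 2.07e-06), whereas the change in IDL was -0.42 ± 0.15 (adjusted p = 0.0919). The difference between these changes was 1.14 ± 0.21 (adjusted p = 0.00186), and IDL lay above DP at day 6 by 0.84 ± 0.15 (adjusted p = 0.000138). FIB (AT4G04020), a fibrillin of plastoglobules, was also higher in IDL at day 6. FIB gave 10.97, 10.77 and 10.60 in the light arrays, 6.71, 6.54 and 6.51 in DP at day 3 and 6.43, 6.67 and 6.66 in DP at day 6. Its IDL arrays read 7.26, 6.40 and 7.39 at day 3 and 7.56, 7.38 and 7.45 at day 6. The IDL arrays of day 6 lay above all DP arrays, with a difference of 0.88 ± 0.18 (adjusted p = 0.000621), and at day 3 the groups overlapped. AT4G01150, listed under the synonym CURT1A, a protein that bends thylakoid membranes, fell in DP by 0.84 between the days (adjusted p = 0.0029).

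CaS, a calcium-sensing protein of the thylakoid, read 7.61, 7.81 and 7.61 in light and 3.56, 3.56 and 3.55 in IDL at day 6. Its DP arrays read 4.15, 4.38 and 4.36 at day 3 and 4.16, 3.88 and 4.21 at day 6, and its IDL arrays 4.15, 4.15 and 4.19 at day 3. IDL at day 6 lay below all other arrays, with a change from day 3 of -0.60 ± 0.11 (adjusted p = 0.00111) and a difference from DP of -0.53 ± 0.11 (adjusted p = 0.00092). HCF101, a scaffold for iron-sulfur clusters needed for photosystem I, lay between -3.40 and -3.03 from light in the 4 groups. LIL3:1, a light-harvesting-like protein that works with geranylgeranyl reductase, lay between -2.50 and -2.29 from light. Neither HCF101 nor LIL3:1 was called in any of the 5 contrasts. The fixed lists of photosystem I subunits (2 measured) and antenna proteins (4 measured) held no member. Photosystem I subunit PSAE-1 lay -1.82 from light in DP at day 3 and -3.33 at day 6. The other measured subunit, PSAN, lay -1.30 and -1.85 from light in DP and -2.18 and -2.83 in IDL at days 3 and 6. Of the antenna genes, LHB1B2 lay between -3.32 and -1.73 from light in the 4 groups and LHCB4.2 between -2.63 and -1.76. LHCB4.3 lay between -1.30 and -0.85, and LHCB4.1 between -1.03 and -0.54. These genes were thus lower in darkness as well. LHCB4.1 and LHCB4.3 missed the threshold in all 4 groups, and the others in at least 1 group.

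**Figure D3:**
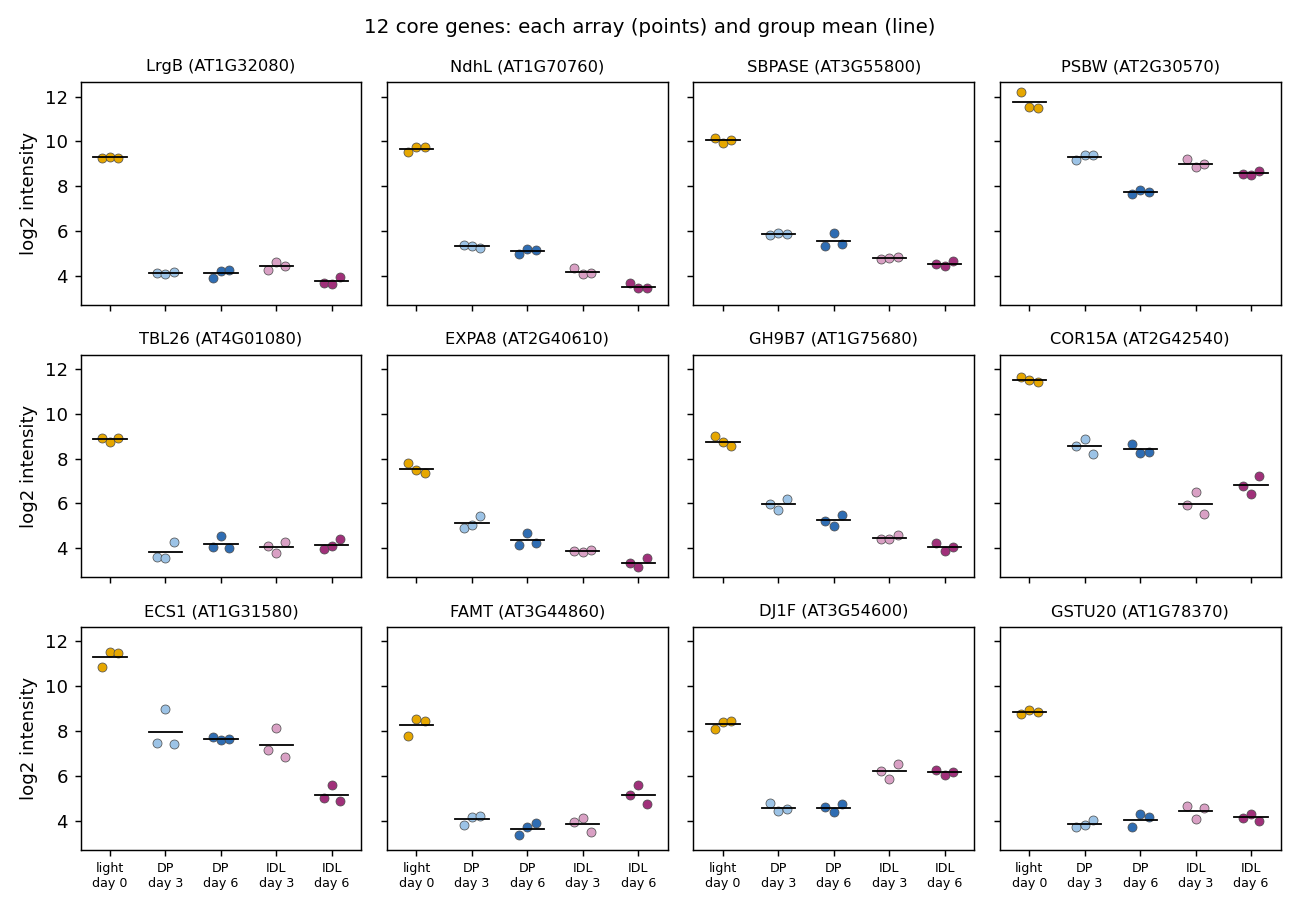
Log2 intensity of 12 core genes in the 5 groups (x axis), with 1 point per array and a line at each group mean of 3 arrays. NdhL and SBPASE were lower in IDL than in DP, DJ1F was higher in IDL, PSBW was lowest in DP at day 6, and FAMT rose and ECS1 fell in IDL between day 3 and day 6.

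Chlorophyll synthesis gave 3 members of 6 measured genes. AT1G74470 read 9.99, 9.87 and 9.89 in the light arrays, 7.82, 7.85 and 7.80 in DP at day 3 and 6.91, 6.79 and 6.73 in DP at day 6. In IDL the arrays read 6.55, 6.70 and 6.77 at day 3 and 6.18, 6.36 and 6.35 at day 6. This locus carries the synonym geranylgeranyl reductase, the enzyme that makes the phytol tail of chlorophyll. Its values stepped down from DP at day 3 to IDL at day 6. IDL differed from DP by -1.15 ± 0.11 (adjusted p = 4.9e-08) at day 3 and -0.52 ± 0.11 (adjusted p = 0.000586) at day 6, and DP fell by 1.01 (adjusted p = 5.12e-06). PORB (AT4G27440), the light-dependent protochlorophyllide oxidoreductase, read 9.43, 8.99 and 9.16 in light. In DP it read 6.89, 6.68 and 6.86 at day 3 and 6.10, 6.40 and 6.33 at day 6, and in IDL 6.19, 6.24 and 6.56 and 5.64, 5.74 and 5.64. IDL at day 6 was below all other arrays, with a change from day 3 of -0.66 ± 0.13 (adjusted p = 0.00224) and a difference from DP of -0.61 ± 0.13 (adjusted p = 0.00108). HEME1, a uroporphyrinogen decarboxylase earlier in the same pathway, differed between IDL and DP at day 6 by -0.51 ± 0.14 (adjusted p = 0.00697). Among non-members of the list, CHLM, the magnesium protoporphyrin methyltransferase, lay -0.94 and -1.28 from light in DP and -1.90 and -2.88 in IDL at days 3 and 6. GSA1 and HEME2 were not called in IDL against DP at day 3 (adjusted p = 0.693 and 0.513) or day 6 (0.814 and 0.172).

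SBPASE (AT3G55800), the sedoheptulose-bisphosphatase of the Calvin cycle, was the only member among 3 measured genes of that list. SBPASE gave 10.15, 9.95 and 10.08 in the light arrays, 5.81, 5.92 and 5.88 in DP at day 3 and 5.36, 5.93 and 5.42 in DP at day 6. The values in IDL were 4.78, 4.82 and 4.86 at day 3 and 4.55, 4.46 and 4.65 at day 6. All IDL arrays lay below all DP arrays, with a difference of -1.05 ± 0.13 (adjusted p = 3e-06) at day 3 and -1.01 ± 0.13 (adjusted p = 2.24e-06) at day 6. PRK, the phosphoribulokinase of the same cycle, missed the threshold in DP: its differences from light were -1.40 and -1.68 in DP and -3.65 and -4.25 in IDL. RCA, the Rubisco activase, lay between -2.18 and -1.71 from light. Thus only SBPASE of these 3 lay at least 4-fold below light in every darkened group.

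Of the plastid redox members described here, AT3G11630 was called lower in IDL than in DP on both days and GrxC5 higher at day 6, while TRXF2 and AOR were called in neither contrast. AT3G11630, a locus of the plastid redox list, read 10.32, 10.06 and 9.40 in light, 6.82, 6.98 and 7.09 and 6.78, 6.93 and 6.71 in DP at days 3 and 6, and 5.54, 5.62 and 5.22 and 5.34, 5.58 and 5.39 in IDL. Its IDL arrays lay below all DP arrays, with a difference of -1.50 ± 0.17 (adjusted p = 1.11e-06) at day 3 and -1.37 ± 0.17 (adjusted p = 1.92e-06) at day 6. GrxC5 is a plastid glutaredoxin. At day 6 it read 5.21, 4.85 and 4.67 in DP and 5.95, 5.57 and 5.78 in IDL, a difference of 0.86 ± 0.18 (adjusted p = 0.000934), and at day 3 its adjusted p was 0.109. TRXF2, a thioredoxin f that activates Calvin cycle enzymes in light, lay between -3.02 and -2.44 from light in the 4 groups. AOR, a plastid oxidoreductase of reactive carbonyls, had darkened means from 4.21 to 4.45 and was called in none of the 5 contrasts. FTSZ2-2, a ring protein of chloroplast division, read 7.52, 7.30 and 7.31 in light, 4.26, 4.31 and 4.14 and 3.73, 3.78 and 3.70 in DP, and 3.91, 4.07 and 4.14 and 3.44, 3.30 and 3.55 in IDL. It fell between the days in both kinds of darkness, by 0.50 in DP (adjusted p = 0.00979) and 0.61 in IDL (0.000847), and the call in DP was lost with reference gene centring (adjusted p = 0.0996). Cpn60beta4, a chloroplast chaperonin subunit, lay between -2.36 and -2.14 from light and was not called.

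Cell wall enzymes gave 8 members with a symbol. TBL26, of a family of wall polysaccharide acetyltransferases, was the lowest of them against light. TBL26 read 8.91, 8.75 and 8.92 in the light arrays, 3.63, 3.58 and 4.3 in DP at day 3 and 4.05, 4.53 and 4.02 in DP at day 6. At day 3 the IDL arrays gave 4.08, 3.79 and 4.27, and at day 6 3.98, 4.09 and 4.42. The darkened groups overlapped and no contrast was called. GH9C2 and GH9B7 are endoglucanases of glycoside hydrolase family 9, of which 19 genes were measured under that symbol and 2 were members. GH9B7 gave 8.99, 8.73 and 8.55 in the light arrays, 5.99, 5.72 and 6.21 in DP at day 3 and 5.23, 5.01 and 5.50 in DP at day 6. IDL gave 4.41, 4.39 and 4.59 at day 3 and 4.24, 3.87 and 4.08 at day 6. In GH9B7 (AT1G75680) all IDL arrays lay below all DP arrays, with a difference of -1.51 ± 0.15 (adjusted p = 1.59e-07) at day 3 and -1.19 ± 0.15 (adjusted p = 2.1e-06) at day 6. GH9C2 had DP means of 4.3 and 4.37, and its IDL mean was 4.24 at day 3 and 3.60 at day 6. GH9C2 was called in IDL against DP at day 6 only, at -0.77 ± 0.16 (adjusted p = 0.000643). It also fell in IDL between the days, by 0.64 (adjusted p = 0.0124). That call was lost without replicate 3 of IDL at day 3 or replicate 1 of IDL at day 6 (adjusted p = 0.055 and 0.0924).

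EXPA8 (AT2G40610), an expansin that loosens walls, was called in all 4 of the pairwise contrasts. EXPA8 gave 7.82, 7.49 and 7.36 in the light arrays, 4.92, 5.06 and 5.44 in DP at day 3 and 4.14, 4.68 and 4.26 in DP at day 6. Individually darkened leaves gave 3.89, 3.84 and 3.94 at day 3 and 3.35, 3.15 and 3.58 at day 6. IDL differed from DP by -1.25 ± 0.16 (adjusted p = 5.02e-06) at day 3 and -1.0 ± 0.16 (adjusted p = 4.12e-05) at day 6, and DP fell by 0.78 between the days (adjusted p = 0.00563). The beta-expansin EXPB1, the xyloglucan transglycosylase XTH32 and the cellulose synthase-like genes CSLA01 and CSLC5 lay near the bottom of the array in darkness. Their darkened means ran from 3.28 to 3.80, and none of the 4 genes was called in any contrast. Of the 10 measured genes of the cell wall list, 3 were members (TBL26, GH9C2 and EXPA8). CSLC04, a xyloglucan backbone synthase of the list, lay -0.65 and -1.38 from light in DP and -4.45 and -3.96 in IDL, and so is no member. XTH33 of the same list was higher than light in DP, by 2.28 and 2.87, and within 0.38 of light in IDL.

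Transport and other metabolism gave 11 members with a symbol or synonym. SWEET13 and SWEET17, of the SWEET sugar transporters, lay -2.72 and -2.85 from light in the mean, among 14 SWEET genes measured. The darkened means of SWEET13 ran from 3.64 to 4.16 and those of SWEET17 from 3.73 to 4.01, and neither was called. SWEET11, the vascular sucrose exporter, is no member: it lay above light by 0.74 at day 3 of DP and by 0.75 at day 6 of IDL. ATSPS4F, a sucrose phosphate synthase of the starch and sucrose list, lay -3.95 and -4.01 from light in DP but -0.67 and -0.52 in IDL. No gene of the 3 measured on that list was a member.

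FAMT (AT3G44860), a farnesoic acid methyltransferase, was among the 4 members called as rising in IDL between day 3 and day 6. FAMT gave 7.78, 8.54 and 8.45 in the light arrays, 3.83, 4.17 and 4.21 in DP at day 3 and 3.34, 3.70 and 3.89 in DP at day 6. Its IDL arrays read 3.94, 4.11 and 3.49 at day 3 and 5.15, 5.58 and 4.76 at day 6. IDL at day 6 stood above all other darkened arrays, although still far below light. Its rise from day 3 to day 6 in IDL was 1.32 ± 0.21 (adjusted p = 0.000256), its difference from DP at day 6 was 1.52 ± 0.21 (adjusted p = 8.09e-06), and the changes in IDL and DP differed by 1.74 ± 0.30 (adjusted p = 0.00094). PMEAMT (AT1G48600), a methyltransferase of phosphocholine synthesis, went the other way. PMEAMT gave 8.16, 8.05 and 8.01 in the light arrays, 4.25, 4.34 and 4.17 in DP at day 3 and 4.1, 4.16 and 4.48 in DP at day 6. In IDL the arrays read 4.97, 4.45 and 5.01 at day 3 and 3.77, 3.78 and 3.98 at day 6. It was higher in IDL than in DP at day 3, by 0.56 ± 0.14 (adjusted p = 0.0065), and fell in IDL by 0.97 to day 6 (adjusted p = 7e-05). The changes in IDL and DP differed by -0.96 ± 0.20 (adjusted p = 0.00444).

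DJ1F (AT3G54600), of the DJ-1 protein family, was the member most above DP in IDL on both days. DJ1F read 8.09, 8.42 and 8.46 in the light arrays, 4.78, 4.41 and 4.53 in DP at day 3 and 4.59, 4.37 and 4.76 in DP at day 6. The values in IDL were 6.23, 5.84 and 6.54 at day 3 and 6.24, 6.05 and 6.18 at day 6. All IDL arrays lay above all DP arrays and below all light arrays. The difference of IDL from DP was 1.63 ± 0.16 (adjusted p = 1.04e-07) at day 3 and 1.58 ± 0.16 (adjusted p = 7.32e-08) at day 6. GSTU20 (AT1G78370), a glutathione transferase on the list of aliphatic glucosinolate synthesis, had a mean difference from light of -4.73. GSTU20 gave 8.75, 8.95 and 8.83 in the light arrays, 3.74, 3.80 and 4.02 in DP at day 3 and 3.70, 4.28 and 4.15 in DP at day 6. At day 3 the IDL arrays gave 4.64, 4.07 and 4.58, and at day 6 4.12, 4.31 and 4.01. Its darkened groups overlapped, with means from 3.85 to 4.43. It was higher in IDL than in DP at day 3 by 0.58 ± 0.16 (adjusted p = 0.0124), a call lost without replicate 1 of DP or replicate 1 or 3 of IDL at day 3 (adjusted p = 0.0608, 0.0813 and 0.0637). BGLU44, a beta-glucosidase, was lower in IDL than in DP at day 3, with a difference of -0.86 ± 0.16 (adjusted p = 0.00057) and fell in DP by 0.81 to day 6 (adjusted p = 0.00493). AT4G13840, listed under the synonym CER26, a gene of wax chain elongation, was lower in IDL than in DP at day 6, with a difference of -0.77 ± 0.13 (adjusted p = 9.4e-05). VTC4, an enzyme of ascorbate synthesis, lay between -2.65 and -2.26 from light and was called in no contrast. BGLU47, another beta-glucosidase, lay -3.49 from light in the mean. The serine carboxypeptidase-like gene scpl35 fell in IDL by 0.71 between the days (adjusted p = 0.0028).

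COR15A and COR15B encode cold-regulated proteins that protect chloroplast membranes and lie next to each other. COR15A gave 11.63, 11.50 and 11.40 in the light arrays, 8.56, 8.88 and 8.20 in DP at day 3 and 8.66, 8.27 and 8.31 in DP at day 6. IDL gave 5.95, 6.50 and 5.52 at day 3 and 6.76, 6.44 and 7.23 at day 6. COR15A stayed higher in DP than in IDL, with no overlap, and IDL minus DP was -2.56 ± 0.21 (adjusted p = 1.38e-08) at day 3 and -1.60 ± 0.21 (adjusted p = 4.46e-06) at day 6. COR15B, in contrast, had a light mean of 6.06 ± 0.21 (SD, n = 3) and darkened means from 3.53 to 3.72, and was called in no contrast. The 2 genes are close copies, and how the probes divide their signal was not tested, so their values are uncertain. ECS1 (AT1G31580), a cell wall protein linked to resistance against Xanthomonas, was the fourth brightest member in light. ECS1 gave 10.84, 11.51 and 11.48 in the light arrays, 7.45, 8.98 and 7.40 in DP at day 3 and 7.74, 7.59 and 7.63 in DP at day 6. Individually darkened leaves gave 7.17, 8.15 and 6.85 at day 3 and 5.01, 5.61 and 4.87 at day 6. Replicate 2 was the highest array at day 3 in both kinds of darkness. IDL at day 6 lay below all other arrays and fell by 2.22 from day 3 (adjusted p = 0.000105). Its difference from DP at day 6 was -2.49 ± 0.33 (adjusted p = 4.29e-06).

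Regulators and signalling genes gave 5 members. WLIM2a, a LIM protein that bundles actin filaments, read 8.61, 8.26 and 8.25 in light, 6.08, 5.64 and 5.85 and 5.09, 4.99 and 4.71 in DP, and 5.36, 4.98 and 5.38 and 4.66, 4.35 and 4.65 in IDL. It fell from day 3 to day 6 in both, by 0.93 in DP (adjusted p = 0.000662) and 0.68 in IDL (0.00491). SNZ, an AP2-type repressor of flowering, lay lower in IDL than in DP at day 6, with a difference of -0.53 ± 0.14 (adjusted p = 0.0042). TRY, a repressor of trichome formation, read 6.95, 7.47 and 7.11 in light and 3.36, 3.55 and 3.75 in IDL at day 6, with a difference of IDL from DP at day 6 of -0.53 ± 0.15 (adjusted p = 0.00798), which lost its call without replicate 1 of IDL at day 6 (adjusted p = 0.0566). GLR3.5, of the glutamate receptor-like channels, had darkened means from 3.86 to 4.41 and was not called. RXW8, the fifth, had a mean of the 4 differences of -2.40. No plastid sigma factor and no senescence marker of the fixed lists was measured under a single gene, and of the light and clock regulators 2 were measured and none was a member.

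Members lower in the individually darkened leaf than in the darkened plant on both days numbered 28 (12.6%, beside 5.94% of all genes), and members higher on both days 7 (3.15%, beside 6.87%). A further 11 were called lower at day 3 only (4.95%, beside 1.92%) and 49 at day 6 only (22.1%, beside 7.89%), which does not show that the days differ. AT1G66100 had the widest gap at day 3. AT1G66100 gave 9.47, 9.27 and 9.10 in the light arrays, 7.29, 7.33 and 6.82 in DP at day 3 and 5.37, 5.18 and 5.57 in DP at day 6. Its IDL arrays read 4.16, 4.25 and 3.82 at day 3 and 3.36, 3.77 and 3.83 at day 6. Every IDL array, at day 3 as at day 6, lay below every DP array. IDL differed from DP by -3.07 ± 0.16 (adjusted p = 2.09e-11) at day 3 and -1.72 ± 0.16 (adjusted p = 3.28e-08) at day 6, and DP fell by 1.77 between the days (adjusted p = 1.18e-06). The change between the days differed between IDL and DP by 1.35 ± 0.23 (adjusted p = 0.000749). AT1G49750 was also lower in IDL on both days, at -1.77 ± 0.26 (adjusted p = 2.49e-05) and -2.23 ± 0.26 (adjusted p = 5.71e-07). AT1G49750 read 9.15, 10.23 and 10.30 in the light arrays, 7.57, 7.75 and 7.67 in DP at day 3 and 6.87, 7.20 and 7.12 in DP at day 6. In IDL the arrays read 5.92, 6.24 and 5.53 at day 3 and 4.33, 5.41 and 4.74 at day 6. No IDL array of AT1G49750 reached the lowest DP array.

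AT5G42530, the brightest member in light, kept a relatively high signal in DP at day 3. AT5G42530 gave 11.24, 12.20 and 12.28 in the light arrays, 8.78, 10.44 and 8.99 in DP at day 3 and 7.66, 8.18 and 8.29 in DP at day 6. The values in IDL were 7.88, 7.74 and 6.99 at day 3 and 6.08, 6.77 and 6.02 at day 6. Replicate 2 of DP at day 3 stood apart at 10.44. IDL differed from DP by -1.87 ± 0.34 (adjusted p = 0.000373) at day 3 and -1.75 ± 0.34 (adjusted p = 0.000378) at day 6. AT1G64680 read 6.00, 6.40 and 6.58 in DP at day 6 and 4.01, 4.3 and 4.40 in IDL at day 6, a difference of -2.09 ± 0.13 (adjusted p = 7.13e-11). AT3G22210 read 5.53, 5.64 and 5.30 and 4.2, 3.76 and 3.99 in the same groups, a difference of -1.51 ± 0.13 (adjusted p = 1.41e-08). In both genes the IDL arrays of day 6 lay below all other arrays.

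The 7 members higher in IDL on both days were DJ1F, AT5G24155, AT1G73600, AT2G37240, AT5G37360, AT5G35970 and AT5G20080. AT5G20080 gave 9.03, 8.92 and 9.08 in the light arrays, 6.21, 5.99 and 6.11 in DP at day 3 and 5.21, 5.59 and 5.39 in DP at day 6. At day 3 the IDL arrays gave 7.16, 6.77 and 7.03, and at day 6 6.85, 6.75 and 7.22. Its IDL arrays lay above all DP arrays, by 0.88 ± 0.14 (adjusted p = 6.22e-05) at day 3 and 1.54 ± 0.14 (adjusted p = 1.39e-08) at day 6. DP of this gene fell between the days by 0.71 (adjusted p = 0.00356). AT5G35970 was higher in IDL by 0.58 ± 0.16 (adjusted p = 0.0121) and 1.32 ± 0.16 (adjusted p = 9.58e-07). AT5G24155, 1 of the 12 members furthest below light, read 3.85, 3.70 and 4.15 and 4.0, 4.18 and 3.64 in DP and 4.69, 4.64 and 4.77 and 4.67, 4.80 and 4.59 in IDL at days 3 and 6. Its differences of IDL from DP were 0.80 ± 0.14 (adjusted p = 0.000166) and 0.74 ± 0.14 (adjusted p = 0.000181). AT1G73600 lay above DP by 1.23 ± 0.15 (adjusted p = 3.02e-06) at day 3 and 0.68 ± 0.15 (adjusted p = 0.00145) at day 6.

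**Figure D4:**
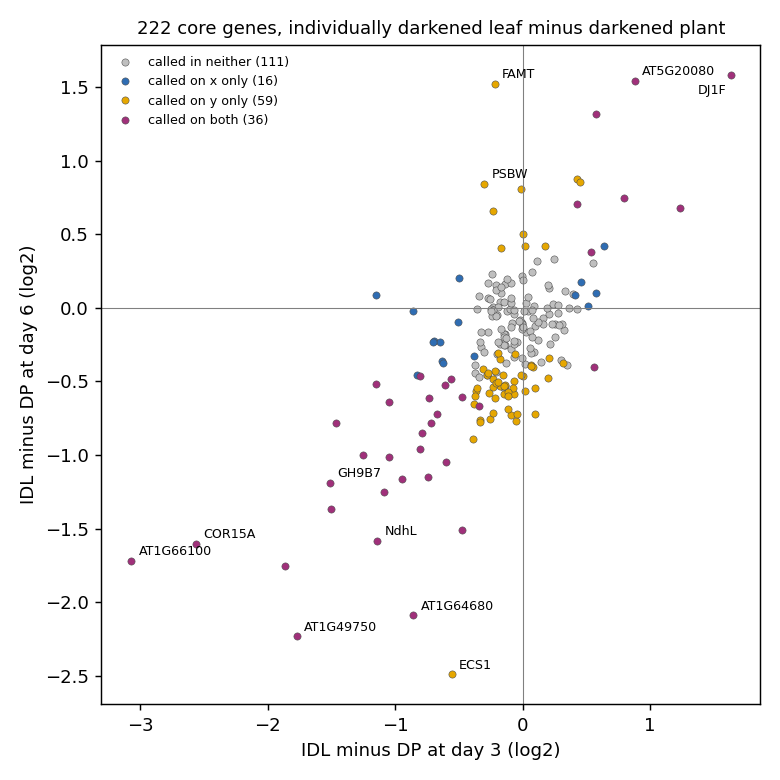
Difference of IDL from DP (log2) at day 3 (x axis) and day 6 (y axis), with 1 point per core gene coloured by the contrasts in which it was called. Of the 222 points, 36 were called on both days (16.2%, beside 13.0% of all genes), 16 at day 3 alone (7.21%, beside 3.7%), 59 at day 6 alone (26.6%, beside 16.0%) and 111 on neither (50%, beside 67.3%), with AT1G66100, COR15A and AT1G49750 at the lower left and DJ1F and AT5G20080 at the upper right.

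Further falls between day 3 and day 6 were called in both kinds of darkness for 11 members (4.95%, beside 0.526% of all genes), in DP alone for 16 (7.21%, beside 1.89%) and in IDL alone for 36 (16.2%, beside 3.17%). A call in DP alone or in IDL alone does not show that their changes differ, which only the interaction tests. Calls in all 4 of the pairwise contrasts were made for 8 members (3.6%, beside 0.606%), namely EXPA8, PORB, AT1G74470, AT1G32470, AT5G42530, AT2G42220, AT3G16370 and AT5G49555, and each was lower in IDL and lower at day 6. AT2G42220 read 9.74, 8.96 and 9.01 in the light arrays, 6.38, 6.29 and 6.52 in DP at day 3 and 5.32, 5.24 and 5.90 in DP at day 6. IDL gave 5.34, 5.36 and 5.22 at day 3 and 4.45, 3.97 and 4.29 at day 6. AT2G42220 stepped down with both time and the kind of darkening. It fell by 0.91 in DP (adjusted p = 0.00569) and 1.07 in IDL (0.000561). Not all these calls were stable: those of PORB in DP and of EXPA8, AT1G74470 and AT1G32470 in IDL between the days were lost without single arrays. The call of PORB was lost without replicate 1 or 3 of DP at day 3 or replicate 1 of DP at day 6 (adjusted p = 0.0958, 0.0792 and 0.101). That of EXPA8 was lost without any 1 of the replicates of IDL at day 3 or replicate 1 or 2 of IDL at day 6 (0.0885 to 0.197). Those of AT1G74470 and AT1G32470 were lost without replicate 2 or 3 of IDL at day 3 or replicate 1 of IDL at day 6 (0.0879 to 0.136 and 0.0826 to 0.157). The calls of AT5G42530 were lost without replicate 2 of DP at day 3 or replicates 1 or 2 of DP at day 6 (0.0609 to 0.135), and in IDL without replicates 1 or 2 of day 3 or 1 or 3 of day 6 (0.0995 to 0.108). The call of PORB in IDL against DP at day 3 was lost without replicate 1 or 3 of DP or 1 or 2 of IDL (0.052 to 0.0785). Reference gene centring ended the calls between the days of PORB in DP (0.113) and of EXPA8, AT1G74470 and AT1G32470 in IDL (0.0809, 0.0928 and 0.0777). Without any 1 of the 15 arrays, 18 of the 27 falls in DP and 20 of the 47 falls in IDL kept their call.

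Of the 4 members that rose in IDL between the days, FAMT and AT4G12980 kept their call without any 1 array. AT4G12980 read 8.04, 7.81 and 7.92 in light, 5.07, 5.20 and 5.70 and 5.04, 5.01 and 4.65 in DP, and 4.25, 4.07 and 4.2 and 5.43, 4.89 and 4.64 in IDL. Its rise in IDL was 0.81 ± 0.18 (adjusted p = 0.0045). The rise of COR15A was 0.82 ± 0.21 (adjusted p = 0.0178), and was lost without replicate 1 or 3 of IDL at day 3 or replicate 3 of IDL at day 6 (adjusted p = 0.0561, 0.121 and 0.12). The rise of AT2G37220 was 0.39 ± 0.12 (adjusted p = 0.0411), and was lost without replicate 1 or 2 of IDL at day 3 or replicate 1 or 3 of IDL at day 6 (0.0841 to 0.187).

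The interaction, the change from day 3 to day 6 in IDL minus that in DP, was called for 20 members (9.01%, beside 5.36% of all genes). It was above 0 in 11 (4.95%, beside 3.13% of all genes) and below 0 in 9 (4.05%, beside 2.23%). Centring on the median of all genes gave 15 above and 7 below, and centring on reference genes 5 above and 18 below, so the share above 0 went from 55.0% to 68.2% and to 21.7%. Without replicate 1 of IDL at day 6 the members above 0 numbered 7, and without replicate 2 of IDL at day 3 those below 0 numbered 5. It was widest above 0 in FAMT, AT1G66100 and AT4G12980, the last at 1.24 ± 0.25 (adjusted p = 0.00374). The interaction below 0 was widest in ECS1, AT1G64680 and AT3G22210. For ECS1 it was -1.93 ± 0.47 (adjusted p = 0.0162), and its call was lost without replicate 1 or 3 of DP at day 3 or replicate 2 of IDL at day 3 (adjusted p = 0.0561, 0.0511 and 0.0533) and with an intensity trend and robust prior (0.117). For AT1G64680 it was -1.23 ± 0.19 (adjusted p = 0.000219) and for AT3G22210 -1.03 ± 0.19 (adjusted p = 0.00174).

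**Figure D5:**
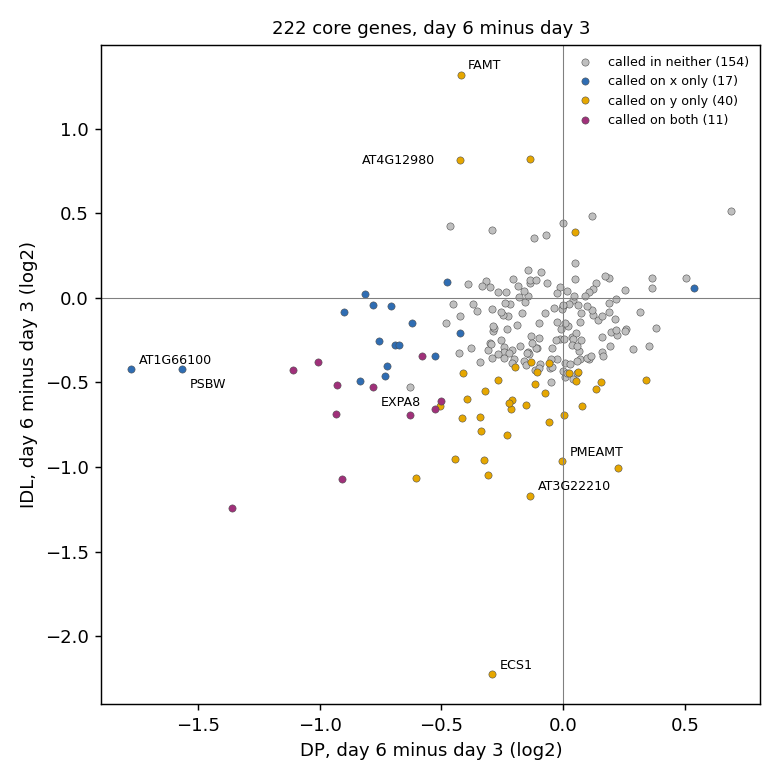
Change from day 3 to day 6 (log2) in DP (x axis) and in IDL (y axis), with 1 point per core gene coloured by the contrasts in which it was called. A call on 1 axis alone does not show that the changes in DP and IDL differ. Of the 222 points, 11 were called in both (4.95%, beside 1.08% of all genes), 17 in DP alone (7.66%, beside 3.49%), 40 in IDL alone (18.0%, beside 7.57%) and 154 in neither (69.4%, beside 87.9%), with PSBW and AT1G66100 furthest to the left, ECS1 lowest and FAMT highest.

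No difference among the darkened groups was called in any of the 5 contrasts for 99 members (44.6%, beside 65.5% of all genes). How many of these 99 ended near the bottom of the array was not counted. The narrowest ranges of the 4 darkened means were those of AT5G19240 (0.04), AT5G03350 (0.07) and AT3G51750 (0.07). AT5G19240 read 5.17, 6.47 and 6.18 in light, 3.58, 3.43 and 3.54 and 3.45, 3.71 and 3.51 in DP, and 3.45, 3.39 and 3.74 and 3.41, 3.60 and 3.59 in IDL. All 12 darkened arrays of this gene lay between 3.39 and 3.74, near the lower quartile of all genes (3.46 to 3.51 by group). AT1G70820, the third lowest member against light, had darkened arrays from 3.54 to 4.27 and was also called in no contrast.

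The makeup of the leaf was described by markers of 4 cell types, of which few were measured. The 3 measured of 8 mesophyll markers (LHCB4.2, PRK and RCA) had a summed intensity of 2991 to 3673 in light, 906.8 to 969.3 in DP at day 3, 671.4 to 756 in DP at day 6, 683.3 to 805.9 in IDL at day 3 and 704 to 845.9 in IDL at day 6. The 2 measured of 8 guard cell markers summed to between 166.2 and 172.2 in light and between 64.88 and 96.41 in darkness, but the 2 genes went opposite ways: AT1G22690 lay between -3.16 and -1.51 from light and FMA between 0.17 and 0.40 above it. TRY, itself a core gene and so lower by the rule, was the only measured epidermis and trichome marker of 8, at 123.7 to 177.8 in light and 10.24 to 19.33 in darkness. SWEET11 was the only measured vascular marker of 8, at 588.2 to 688.4 in light and 785.1 to 1162 in darkness. The mesophyll sum was thus lower in every darkened array than in every light array, and the single vascular marker higher. The 3 mesophyll markers are also photosynthesis genes described above as lower in darkness, so their sum cannot show a change in cell makeup. The sum also hides PRK, which differed between IDL and DP by -2.25 at day 3 and -2.57 at day 6. The part of cell makeup in the results was not tested.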

How the data were processed

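Leaf RNA of 15 samples was hybridised to 1 Affymetrix array each, and the 5 groups of 3 biological replicates follow the labels. The deposited values are linear intensities of probe sets, from 5.192 to 6632.8, for which the submitters' processing notes name the R package oligo. Which version and which correction, scaling and summary steps were run is not given in the sources used here. Array medians lay between 18.31 and 19.56, and depth does not apply to arrays: their number, 3 per group, limits the precision. Within a group, pairs of arrays had an r of 0.984 to 0.991, and between groups 0.805 to 0.981.

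The deposited intensities were converted to log2. Of 26676 probe sets, 16179 had exactly 1 gene, 588 several and 9909 none, and 16067 matched the RefSeq gene table (assembly TAIR10.1), used for names and neighbours. The brightest probe set stood for a locus with more than 1, which gave 16175 genes, 1607 with a symbol. No gene was left out for low values. All 15 arrays were fitted with limma 3.58.1 (lmFit and eBayes, R 4.3.3), 1 mean for each group and 10.52 prior degrees of freedom. Values after ± are standard errors for differences and SDs for means. P-values are two-sided and adjusted by Benjamini-Hochberg over all genes of a contrast. The steps were tested on simulated data.

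The members and the gene lists were chosen with earlier results of these data known, and role groups were written after the members were seen. The 363 entries of 24 gene lists had 69 measured. Named genes were the 12 lowest means against light, the 5 largest called differences each way per contrast (3 for the interaction), the genes nearest the threshold, the brightest in light, the widest and narrowest ranges, and members with a symbol or on a list. Same-numbered replicates did not deviate together (correlations from -0.08 to 0.09 over 30 pairs), so no pairing was used. Alternatives were an adjusted p under 0.01, a 2-fold minimum, leaving out the lowest quartile of genes, median and reference gene centring, quantile normalization, array weights, a robust prior with an intensity trend, a fit limited to the arrays compared, a replicate block, all probe sets and omission of each array. A search of promoter motifs was not run, since no sequences were used here.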

Additional observations from a re-analysis of the deposited data

Results flagged for a closer look

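The change from day 3 to day 6 differed between the individually darkened leaf and the darkened plant in 20 members (interaction of limma, adjusted p under 0.05). The log2 difference of these changes, IDL minus DP, was 1.74 for FAMT, 1.35 for AT1G66100, 1.24 for AT4G12980, 1.14 for PSBW, 0.89 for AT1G78995, 0.83 for BGLU44, 0.82 for AT2G43550, 0.70 for AT5G39790, 0.68 for AT3G16370, 0.63 for AT1G74470 and 0.57 for AT4G33500. It was -1.93 for ECS1, -1.23 for AT1G64680, -1.03 for AT3G22210, -0.96 for PMEAMT, -0.83 for AT5G41900, -0.69 for LrgB, -0.68 for AT4G16410, -0.65 for AT3G48420 and -0.58 for AT5G22620. Of the 11 members above 0, 6 kept their call without any 1 of the 15 arrays, and of the 9 below 0, 4 did.

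The thresholds of the rule were also met by 268 probe sets with no gene in the annotation (2.7% of 9909) and by 6 with several genes (1.02% of 588). These probe sets lay outside all counts of members. Groups of 3 arrays were not tested for outlying arrays.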

How the results depend on the processing

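No named difference changed direction under any alternative run. The number of members was 222 and lay between 204 (quantile normalization) and 230 (without replicate 3 of light), of which 204 and 216 were among the 222. Reference gene centring changed the members higher in IDL at day 3 from 13 to 8, lower in IDL at day 6 from 78 to 127, higher at day 6 in DP from 1 to 5, and the interaction from 11 above and 9 below 0 to 5 and 18. The cause was not tested, and 2 of the 5 reference genes were themselves called higher in IDL than in DP at day 6. An adjusted p under 0.01 left 7 higher in IDL at day 3, 0 higher at day 6 in DP, 2 higher and 20 lower at day 6 in IDL, and an interaction above 0 in 5 and below 0 in 4. A 2-fold minimum left 2 higher and 14 lower in IDL at day 3, 4 higher and 15 lower at day 6, 0 higher and 5 lower over time in DP, 1 higher and 7 lower over time in IDL, and 4 and 3 for the interaction. Array weights and a fit of only the arrays compared gave 0 higher at day 6 in DP, where limma had 6 members at an unadjusted p under 0.05 in the fit of all arrays, 7 with array weights and 9 with only the arrays compared.

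Leaving out each array in turn gave 8 to 14 higher and 34 to 40 lower in IDL at day 3, 16 to 18 and 65 to 82 at day 6, 0 to 2 and 23 to 28 over time in DP, 3 to 5 and 29 to 51 over time in IDL, and 7 to 11 and 5 to 11 for the interaction. With the replicate number as a block the counts were 13 and 39, 17 and 79, 1 and 27, 4 and 47, and 11 and 8 in the same order, and no count moved by over 1.5 times. Of 116 named differences, 74 lost their call under at least 1 alternative, 70 of them under the 2-fold minimum and 34 at an adjusted p under 0.01. No background values were used, so differences that end near the lower quartile of an array are limited by that level.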
